A study of Mus musculus with 8 samples.

Results

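Proteins that are secreted or placed in membranes enter the endoplasmic reticulum (ER) while they are made. The signal recognition particle brings the ribosome to the ER membrane, the Sec61 channel passes the chain through, signal peptidase cuts off the leading peptide, and the oligosaccharyltransferase adds N-linked sugars. Inside, chaperones and disulfide isomerases fold the chain, and KDEL receptors return escaped ER proteins from the Golgi. In lung, this machinery serves surfactant-making epithelium, matrix-making fibroblasts, plasma cells and macrophages, and when unfolded proteins pile up the unfolded protein response raises many of its genes. The genes described here are 47 rows, of 23284 in the gene table, picked by symbol to cover these steps, in 8 role groups. They were picked with the contrast between the study's groups in view, so the members' differences in that contrast are a description and support nothing by themselves.

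The samples were RNA of lungs from wild-type (WT) C57BL/6 recipients of a bone marrow transplant, taken after hypoxia lasting 3 days. For 4 recipients, donors were triply n/i/eNOS-/-, that is, without the neuronal, inducible and endothelial nitric oxide synthases (NOS-null marrow). For the remaining 4, donors were WT (WT marrow). All 8 recipients were WT, transplanted and hypoxic, so the recipients' own lung cells carried intact synthase genes in both groups, and neither how many lung cells came from the donor nor lungs kept in normal air was analysed here. The series title places the comparison in work on myelocytic nitric oxide synthases in hypoxic pulmonary hypertension.

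Levels are the authors' count-scale values, adjusted between libraries by them (scaled reads), and n = 4 libraries per group throughout. A log2 change is NOS-null marrow minus WT marrow of log2(scaled reads + 1), with its standard error (SE), and understates the change of low genes. Library totals were 7767065 to 8625142 scaled reads. The targeted genes were Nos2, at 29.5 ± 14.7 scaled reads (SD) with NOS-null marrow against 98.6 ± 13.1 with WT marrow (limma adjusted p = 0.0221), Nos3 at 194 ± 18.0 against 184 ± 15.8 (adjusted p = 0.701), and Nos1, listed at 0 in all libraries but NOS-null marrow replicate 4 (1.09). Lung markers were high in all libraries, with Sftpc of alveolar type 2 cells at 82561 ± 12583 against 99604 ± 10399. The labels name mice but not how replicates relate otherwise, so p-values measure the spread between these libraries, and in whole lung fewer cells of a type cannot be told apart from less RNA per cell.

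The promoters of several chaperone genes carry the element through which the unfolded protein response acts, and these sequences are shown as a description. The choice by symbol read no promoter, but it named genes known to be raised by ER stress. The share of members with the element is therefore tied to that choice and is no separate support. Of the 47 members, 38 had a promoter window in RefSeq (GRCm38.p6, 250 bases before to 50 after the start). The ER stress element, searched as CCAAT, 9 bases of any kind and then CCACG, on both strands, lay in 7 of the 38 windows, against 37 of 27025 genes with such a window (0.137%). The 7 were Hspa5, Hsp90b1, Calr, Canx, Creld2 and Dnajc3 among the chaperones and co-chaperones, and Pdia6 among the disulfide isomerases. Below are the 200 bases before the Hspa5 start (chr2:34771890-34772089, plus strand) and each other element with 25 bases on either side, in the direction of the gene. Capitals mark the fixed letters of the element, which read CGTGG and ATTGG where it lies on the opposite strand.
Hspa5: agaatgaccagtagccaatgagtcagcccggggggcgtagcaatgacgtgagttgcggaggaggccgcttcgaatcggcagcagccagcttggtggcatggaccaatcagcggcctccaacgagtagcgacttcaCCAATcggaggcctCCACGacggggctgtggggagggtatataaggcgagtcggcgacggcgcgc
Hsp90b1, chr10:86705613-86705681, minus strand: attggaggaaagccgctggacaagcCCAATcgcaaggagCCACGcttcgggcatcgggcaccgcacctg
Hsp90b1, chr10:86705508-86705576, minus strand: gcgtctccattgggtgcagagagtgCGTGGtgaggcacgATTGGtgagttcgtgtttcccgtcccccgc
Calr, chr8:84847050-84847118, minus strand: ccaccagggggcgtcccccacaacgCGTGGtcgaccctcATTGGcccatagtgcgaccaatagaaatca
Canx, chr11:50325775-50325843, minus strand: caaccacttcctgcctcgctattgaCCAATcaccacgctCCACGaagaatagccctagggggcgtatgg
Creld2, chr15:88819495-88819563, plus strand: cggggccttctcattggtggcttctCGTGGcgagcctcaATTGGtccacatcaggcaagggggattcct
Dnajc3, chr14:118937802-118937870, plus strand: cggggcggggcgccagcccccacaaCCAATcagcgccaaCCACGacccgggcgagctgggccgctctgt
Pdia6, chr12:17266466-17266534, plus strand: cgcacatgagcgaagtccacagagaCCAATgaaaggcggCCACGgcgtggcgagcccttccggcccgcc

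The first base of the element lay 65 bases before the start in Hspa5, 98 in Pdia6, 105 in Dnajc3, 126 in Creld2, 145 in Canx and 162 in Calr, while Hsp90b1 held 2 copies, 212 and 107 bases before it. A second form, ATTGG, 1 base of any kind and then CCACG, was found in Dnajb11 alone of the 38 (0.0444% of all genes with a window), and the core of the unfolded protein response element, TGACGTGG, in Kdelr3 alone (0.714% of all such genes). The Kdelr3 match lies on the opposite strand within chr15:79516353-79516407, plus strand, shown with the core in capitals because Kdelr3 had the largest difference of any member.
Kdelr3: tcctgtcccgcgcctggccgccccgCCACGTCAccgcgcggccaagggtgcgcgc

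Members with the element included both lower and nearly equal genes. The 7 with the ER stress element had a median log2 change of −0.40, and the 30 tested members whose window lacked it had −0.25. In the first set were Hspa5 and Pdia6, which were lower with NOS-null marrow by 0.57 and 0.69 on the log2 scale, but also Dnajc3 and Canx, at −0.03 and −0.15. A match says only that these letters stand in the window.

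As a group, the ER genes stood lower with NOS-null marrow. Of the 47, 46 passed the filter on low values and were tested; the other, Pdia2, a pancreas-enriched isomerase, stood at 2.96 to 4.35 scaled reads with NOS-null marrow against 0.994 to 4.68 with WT marrow. The log2 change was negative in 43 of 46 members (median −0.31), where 49.9% of all 14008 tested genes were negative (median 0.00). In 27 members all 4 NOS-null marrow libraries lay below all 4 WT marrow libraries, where 9.29% of all genes did so, and in none did they lie above, where 7.82% of all genes did. With limma, 15 members were called lower and 0 higher (Benjamini-Hochberg adjustment across the whole table, threshold 0.05), where 4.05% of all genes were called in either direction, 2.18% lower (305) and 1.87% higher. The members' adjusted p-values ran from 0.00947 to 0.0372 among the 15, and 9 further members had one under 0.1. Since the members were picked with this contrast in view, these counts describe them only.

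**Figure D1:**
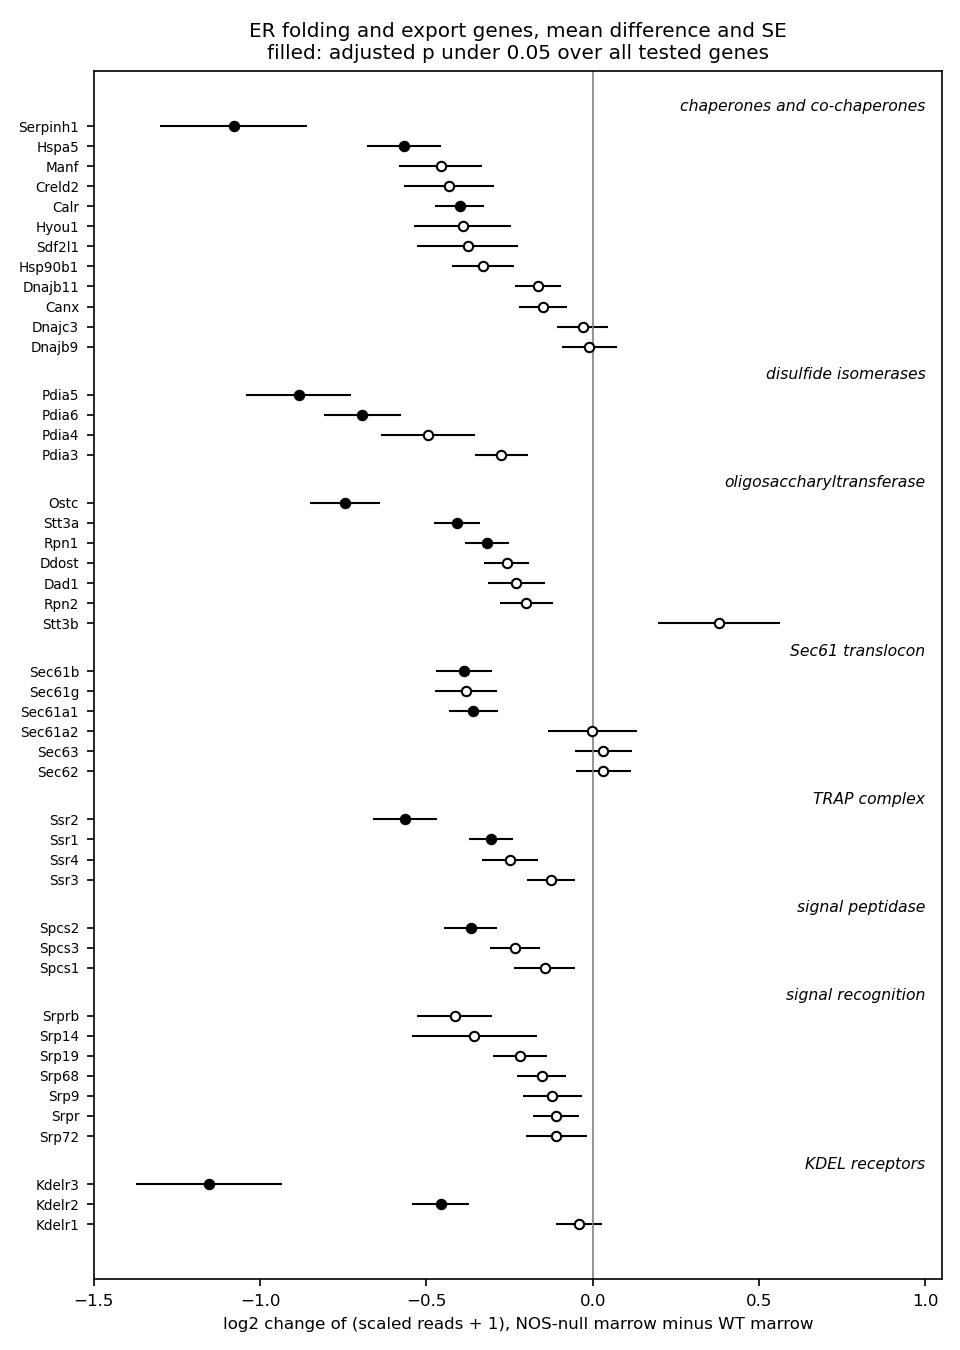
Log2 change of each of the 46 tested members (horizontal axis, log2 of scaled reads + 1, NOS-null marrow minus WT marrow; bars are SE), grouped by role. Filled circles are the 15 called lower; Kdelr3 (−1.15) and Serpinh1 (−1.08) lie farthest left and Stt3b (0.38) farthest right.

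Taken as a sum, the 47 genes held 0.780, 0.877, 0.943 and 0.960% of all scaled reads across NOS-null marrow libraries 1 to 4, against 1.15, 1.10, 1.15 and 1.11% across WT marrow libraries 1 to 4. The groups did not overlap, and the mean sum with NOS-null marrow was 80.3% of that with WT marrow. The members' share was lowest in NOS-null marrow replicates 1 and 2. In 26 of 46 members (56.5%) both of these libraries lay below both of replicates 3 and 4, against 27.0% of all tested genes, and this held for each of the 15 called members. Replicate 1 was the lowest of the 8 libraries for 26 members and WT marrow replicate 1 the highest for 26.

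The number of members called depended on single libraries, while the direction did not. It was 12, 1, 16 and 18 without NOS-null marrow replicates 1, 2, 3 and 4, and 1, 1, 1 and 5 without WT marrow replicates 1, 2, 3 and 4, where the count over all genes moved in the same way, from 71 to 798. The single member called in all 8 of these fits was Ostc. Over the same fits the median log2 change of the members stayed between −0.33 and −0.26, with 42 to 44 members negative. With NOS-null marrow replicates 1 and 2 both left out, the median was −0.23 and 5 members were called (Kdelr3, Serpinh1, Pdia6, Ostc and Ssr2), where 0.60% of all genes were called lower.

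**Figure D2:**
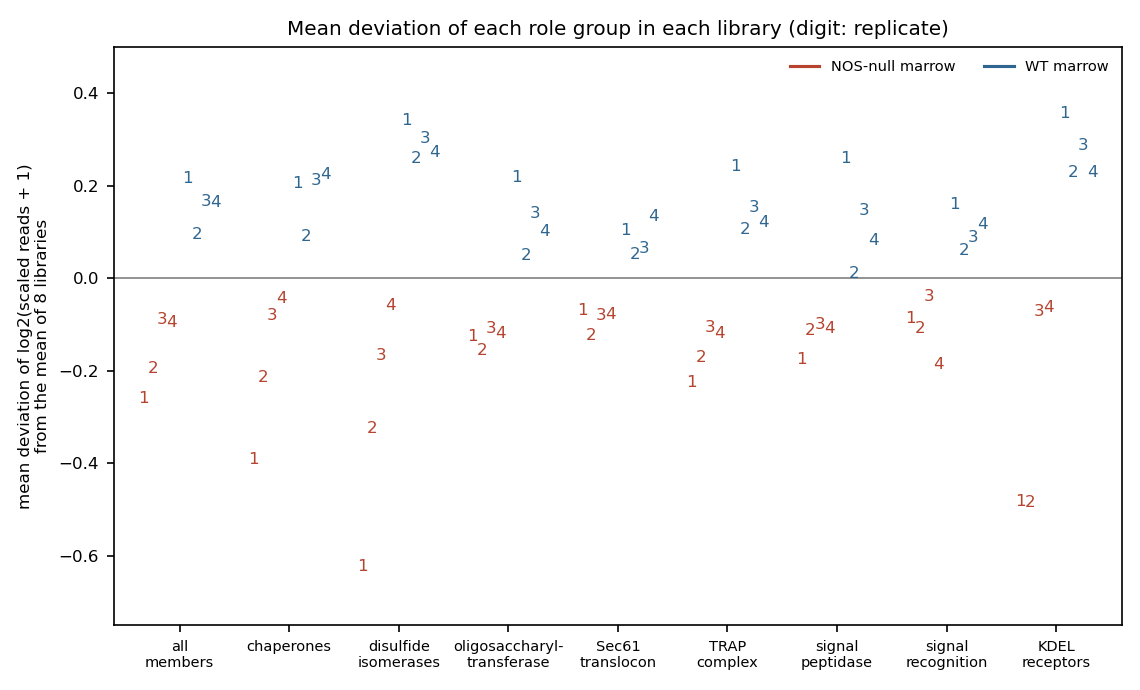
Mean deviation of log2(scaled reads + 1) from the mean of the 8 libraries (vertical axis), averaged over the tested members of each role group, with 1 digit per library giving its replicate number. NOS-null marrow stands left of WT marrow in each pair; in all 8 role groups every NOS-null marrow library lies below every WT marrow library, and disulfide isomerases of NOS-null marrow replicate 1 lie lowest, at −0.62.

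Chaperones came first among the abundant members. Per gene length, Hsp90b1, Calr and Hspa5 were the most abundant of the 47, at 311, 299 and 278 FPKM (fragments scaled for gene length and library depth) with NOS-null marrow against 390, 395 and 409.5 with WT marrow. Of 12 genes in this group, 3 were called lower (Hspa5, Calr and Serpinh1) and none higher, against 2.18% and 1.87% of all tested genes. All 12 log2 changes were negative (median −0.38), where 49.9% of all tested genes were.

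Hspa5 encodes BiP, the ER member of the HSP70 family (chromosome 2, 34772090 to 34776529, GRCm38). It had 4617, 4928, 5938 and 6327 scaled reads across NOS-null marrow libraries 1 to 4, against 8095, 7368, 8647 and 7994 across WT marrow libraries 1 to 4. The highest NOS-null marrow library lay below the lowest WT marrow library, and the NOS-null marrow mean was 67.9% of the WT marrow mean (log2 change −0.57, SE 0.11). Hsp90b1, the ER form of HSP90 also called GRP94, had 5756, 7273, 6825 and 6768 scaled reads with NOS-null marrow, against 9043, 8219, 8504 and 7649 with WT marrow. Its groups did not overlap either, but its log2 change of −0.33 (SE 0.09) did not pass. Hyou1, a large chaperone that helps BiP release nucleotide, stood at 178 ± 34.5 against 229.8 ± 13.9 and also did not pass.

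Calr, encoding calreticulin, a lectin that holds glycoproteins while they fold, had 4009, 4337, 4600.5 and 4489.8 scaled reads with NOS-null marrow, against 6101, 5498, 5729 and 5667 with WT marrow (log2 change −0.40, SE 0.07). Canx, its membrane-bound relative calnexin, stood at 4237 ± 269 against 4695 ± 172 (−0.15, SE 0.07). Calr was lower in every NOS-null marrow library, whereas the Canx groups overlapped.

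Among the co-chaperones of BiP, Dnajb9 and Dnajc3 had the smallest differences of the 12 chaperone genes. Dnajb9 averaged 697 ± 42.0 scaled reads with NOS-null marrow against 702 ± 58.2 with WT marrow (log2 change −0.01), and Dnajc3 at 2751 ± 159.7 against 2810.5 ± 177 (−0.03). Dnajb11 was lower without overlap, at 743 ± 25.3 against 833 ± 40.9, but did not pass (−0.16, SE 0.07). Sdf2l1, which works with Dnajb11, stood at 126 ± 24.5 against 163 ± 21.0 (−0.38, SE 0.15), with overlapping groups. Manf and Creld2, genes of secreted or luminal proteins known to be raised by ER stress, had log2 changes of −0.46 and −0.43 (SE 0.13 and 0.14) and overlapping groups, and did not pass.

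Serpinh1 encodes HSP47, the chaperone dedicated to collagen (chromosome 7, 99345375 to 99353239). It had 1668, 2314, 3657 and 3653 scaled reads across NOS-null marrow libraries 1 to 4, against 6001, 5356, 5749 and 5569.7 across WT marrow libraries 1 to 4. NOS-null marrow libraries fell into a lower pair, replicates 1 and 2, and a higher pair, replicates 3 and 4, and both pairs lay below WT marrow. The mean was 49.8% of that with WT marrow (log2 change −1.08, SE 0.22). The log2 change was −0.63 without NOS-null marrow replicates 1 and 2. Of 9 fibroblast markers none was called and 7 of 9 changes were negative (median −0.12), with a summed level of 13825 to 26293 against 24293 to 28471 scaled reads, and the lowest sum was in NOS-null marrow replicate 1. The 2 positive changes were those of Pdgfra, higher without overlap at 3804 ± 694 against 2962 ± 158 (0.35), and Dcn (0.25). Col3a1, a collagen chain that HSP47 binds, had 2792, 7591, 11264 and 11096 scaled reads with NOS-null marrow against 13379.6, 13182, 12626 and 10597 with WT marrow, and its groups overlapped (log2 change −0.79, SE 0.37, adjusted p = 0.206). The part of fibroblast number in the Serpinh1 difference was not tested.

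**Figure D3:**
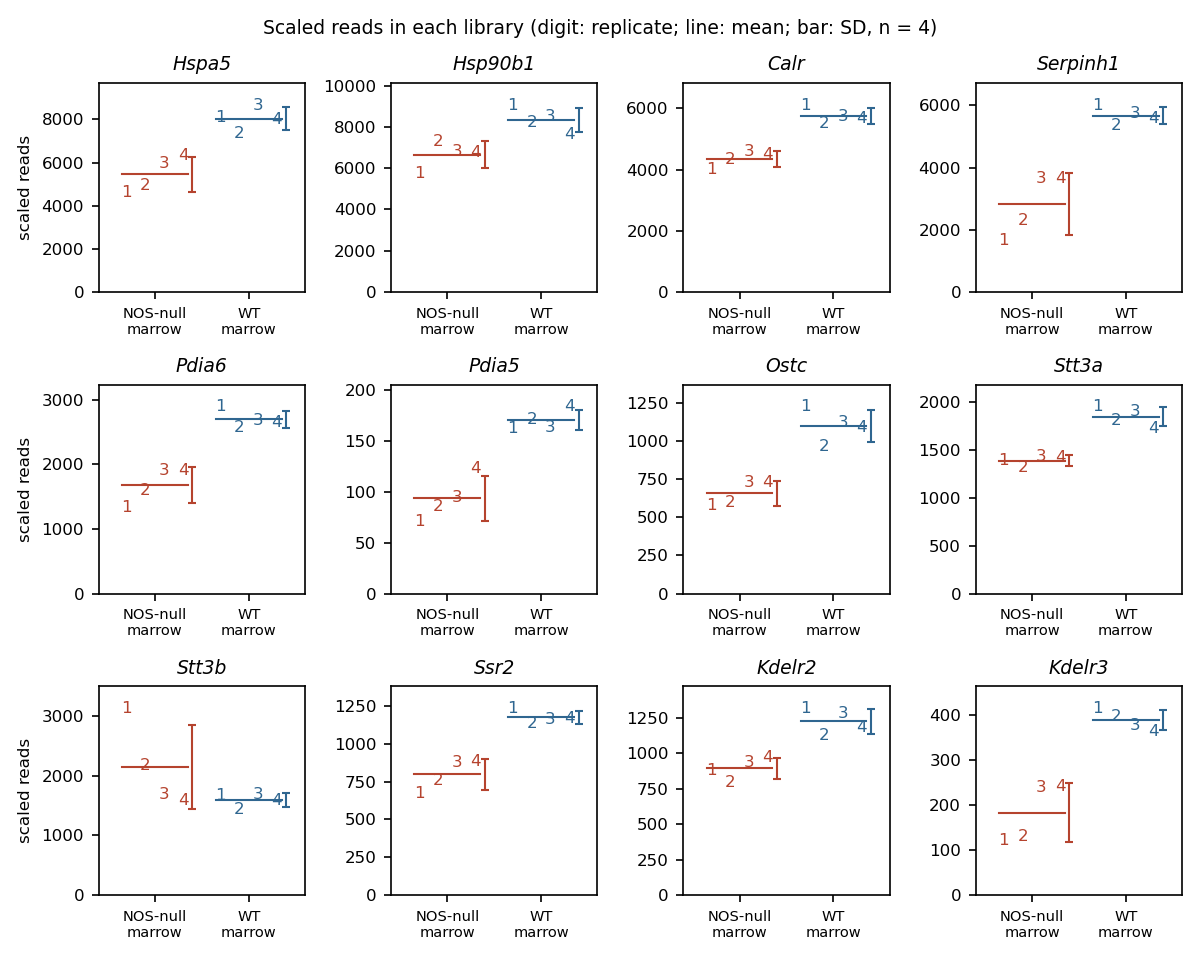
Scaled reads (vertical axes, from 0) of 12 members in each library; digits are replicate numbers, horizontal lines are means and bars are SD with n = 4, with NOS-null marrow left of WT marrow. In 11 of the 12 panels the NOS-null marrow libraries all lie below the WT marrow libraries; in the Stt3b panel replicates 1 and 2 of NOS-null marrow lie above.

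Disulfide isomerases, which form and shuffle disulfide bonds, had the lowest median of the role groups (−0.59 over 4 tested genes). All 4 had groups that did not overlap on the lower side, where 9.29% of all tested genes did so. Pdia6 (chromosome 12, 17266589 to 17284785) had 1331, 1601, 1906 and 1913 scaled reads with NOS-null marrow, against 2891, 2578, 2685 and 2649 with WT marrow (log2 change −0.69, SE 0.11). Pdia5 had 70.7, 85.4, 94.7 and 123 scaled reads with NOS-null marrow, against 162, 171, 164 and 183 with WT marrow (−0.88, SE 0.16). Both were called, and in both NOS-null marrow replicate 1 was lowest. Pdia4 stood at 1114 ± 231 against 1546 ± 98.2 (−0.50, SE 0.14). Pdia3, also known as ERp57, which works with calreticulin and calnexin, stood at 4336 ± 338 against 5238 ± 219.9 (−0.27, SE 0.08). Neither passed, although every NOS-null marrow library lay below every WT marrow library for each gene.

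Within the oligosaccharyltransferase, the catalytic subunits had log2 changes of opposite sign. STT3A acts beside the translocon as the chain enters, and STT3B reaches sites that were missed, with the help of an oxidoreductase subunit such as MAGT1. Stt3a had 1389, 1316, 1437 and 1424 scaled reads with NOS-null marrow, against 1952, 1808, 1901 and 1728 with WT marrow (log2 change −0.41, SE 0.07), without overlap, and was called. Stt3b had 3131, 2165, 1689.9 and 1590.1 scaled reads across NOS-null marrow libraries 1 to 4, against 1664, 1430.3, 1691 and 1581 across WT marrow libraries 1 to 4. Only NOS-null marrow replicates 1 and 2 lay above the WT marrow range, the log2 change of 0.38 (SE 0.18) did not pass, and without these replicates it was 0.05. The FPKM ratio of Stt3b to Stt3a came to 1.40, 1.02, 0.730 and 0.693 across NOS-null marrow libraries 1 to 4, against 0.491 to 0.568 with WT marrow, so in every NOS-null marrow library this ratio lay above the WT marrow range.

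Ostc encodes a small subunit that belongs to the STT3A form. It had 576, 598, 727 and 732 scaled reads with NOS-null marrow, against 1226, 967, 1121 and 1088 with WT marrow (log2 change −0.74, SE 0.11). The mean was 59.8% of that with WT marrow, and of the 46 members it had the smallest adjusted p (0.00947). Rpn1, ribophorin I, was also called (1899 ± 81.3 against 2366 ± 90.9, −0.32, SE 0.07). Ddost and Rpn2, shared subunits, were lower without overlap by 0.26 and 0.20 on the log2 scale and did not pass. For Dad1, a shared subunit named for its part in cell survival, the log2 change was −0.23 with overlap.

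Of the 6 genes of the channel and its accessory factors, Sec61a1 and Sec61b were called lower and 4 were not called. Across all tested genes, 2.18% were called lower. Sec61a1, the pore subunit (chromosome 6, 88503607 to 88518800), had 1686, 1858, 1905 and 2022 scaled reads with NOS-null marrow, against 2337, 2500.0, 2307 and 2418 with WT marrow (log2 change −0.36, SE 0.07). Sec61b, a small subunit, had 501, 498, 550.2 and 557 with NOS-null marrow, against 735, 619, 667 and 739 with WT marrow (−0.39, SE 0.08). Both were called, and Sec61g, the other small subunit, missed the threshold at a similar log2 change of −0.38 (SE 0.09). By contrast, Sec62 and Sec63, membrane proteins that assist the channel for some substrates, each had a log2 change of 0.03 (SE 0.08 and 0.09). Sec61a2, the scarcer pore paralog, stood at 109.6 ± 14.4 against 109.3 ± 9.73 scaled reads, but its exons overlap those of Nudt5 on the opposite strand over 909 bases. Exons of Sec61a1, Sec62 and Sec63 also overlap opposite-strand genes, over 388, 509 and 173 bases, and the library strand is not stated.

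All 4 subunits of the TRAP complex, which sits beside the channel and aids translocation, had negative changes. Ssr2 had 672, 759, 879 and 886 scaled reads with NOS-null marrow, against 1235, 1137, 1164 and 1167 with WT marrow (log2 change −0.57, SE 0.10), and Ssr1 stood at 2105 ± 117 against 2598 ± 48.0 (−0.31, SE 0.07). Those were called; Ssr4 (−0.25, SE 0.09) and Ssr3 (−0.13, SE 0.07) were not. Of the signal peptidase genes, Spcs2 was called (1239 ± 68.2 against 1599.9 ± 133, −0.37, SE 0.08), and Spcs3 (−0.23) and Spcs1 (−0.14) were not.

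Genes of the signal recognition particle and its receptor had the median nearest to 0 of the role groups. None of 7 was called, where 4.05% of all tested genes were called in either direction, and the median log2 change was −0.15. The largest difference was in Srprb, the receptor's membrane-anchored subunit, at 439 ± 63.9 against 583 ± 52.5 scaled reads (−0.42, SE 0.11), without overlap. Its partner Srpr stood at 1511 ± 76.5 against 1632 ± 74.0 (−0.11, SE 0.07). Among the particle's own proteins, Srp19 was lower without overlap (−0.22, SE 0.08), while Srp9, Srp68 and Srp72 had log2 changes of −0.12, −0.15 and −0.11 with overlap. Srp14 had 737, 742, 826 and 415 scaled reads with NOS-null marrow, against 948, 821, 772 and 840.4 with WT marrow, so its log2 change of −0.36 rested on replicate 4 and was −0.14 without it.

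KDEL receptors had log2 changes of −0.04 to −1.15, and 2 of 3 were called lower, where 2.18% of all tested genes were. Kdelr3 (chromosome 15, 79516408 to 79527739) had 122, 129, 239 and 241 scaled reads across NOS-null marrow libraries 1 to 4, against 414, 397, 377 and 363 across WT marrow libraries 1 to 4. NOS-null marrow replicates 1 and 2 were the lowest, all 4 lay below WT marrow, and the log2 change of −1.15 (SE 0.22) was the largest of any member; it was −0.69 without replicates 1 and 2. Kdelr2 had 876, 794, 931 and 970.2 scaled reads with NOS-null marrow, against 1316, 1124, 1280.1 and 1179.7 with WT marrow (−0.46, SE 0.09). Kdelr1 stood at 983 ± 55.1 against 1011 ± 29.0 (−0.04, SE 0.07, 95% interval −0.19 to 0.11). Per gene length, Kdelr3 was the scarcest of the 3, with an FPKM ratio to Kdelr1 of 0.145, 0.148, 0.249 and 0.262 across NOS-null marrow libraries 1 to 4, against 0.390 to 0.447 with WT marrow.

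**Figure D4:**
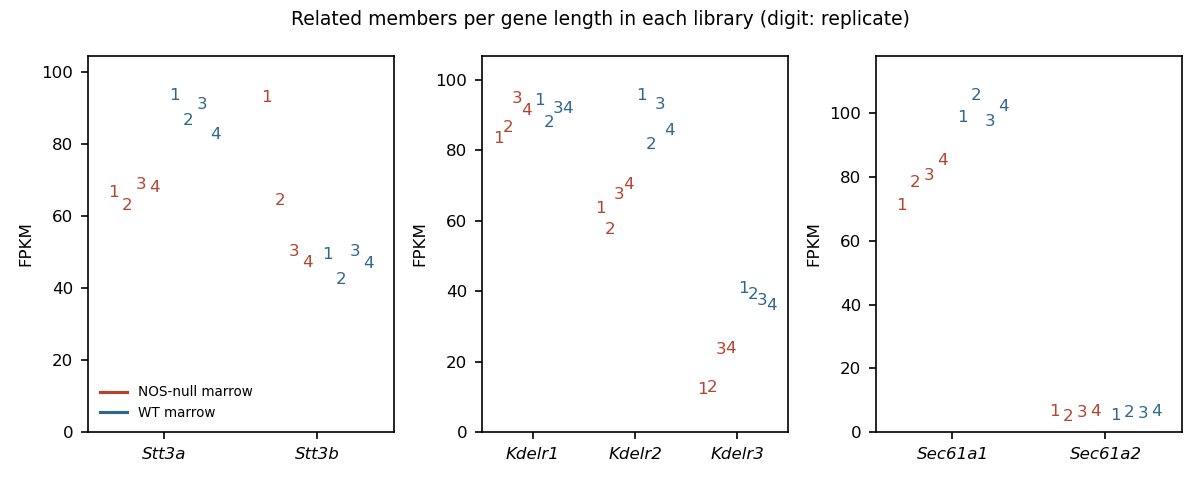
FPKM (vertical axes, from 0) of related members in each library; digits are replicate numbers and NOS-null marrow stands left of WT marrow for each gene. Stt3a, Kdelr2, Kdelr3 and Sec61a1 lie lower in every NOS-null marrow library, Kdelr1 and Sec61a2 overlap, and Stt3b is highest in NOS-null marrow replicates 1 and 2.

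Genes of the same pathway that the choice by symbol left out were counted in 7 lists, 144 tested genes in all. Limma called 13 lower (9.03%) and 1 higher, against 2.18% and 1.87% of all tested genes, and 45 had groups that did not overlap on the lower side (31.2%), against 9.29%. The median log2 change was −0.11. These lists, like the members, were chosen with earlier results of these data known, so the counts describe them only. The count of 13 became 8, 1, 12 and 11 without NOS-null marrow replicates 1, 2, 3 and 4, and 1, 2, 1 and 2 without WT marrow replicates 1, 2, 3 and 4, and Magt1 was called in every one of these fits. Among the others called lower, Tmx2 was called most often, in 4 of the 8 fits, Cnpy2 and Xbp1 in 1 and Sar1a in 0.

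Among 33 other folding enzymes, 4 fell, where 2.18% of all tested genes were called lower. They were Txndc5 and Tmx2, thioredoxin-like proteins of the ER, Fkbp2, a prolyl isomerase, and Cnpy2. Tmx2 averaged 428 ± 28.6 scaled reads with NOS-null marrow against 585 ± 37.7 with WT marrow (log2 change −0.45 with SE 0.08, adjusted p = 0.0231). P4hb, the founding disulfide isomerase, was lower without overlap at 5136 ± 406 against 6037 ± 83.8 (−0.24, adjusted p = 0.0932). Qsox1, a disulfide-forming oxidase, went the other way, at 3031, 2655, 2015 and 1755 with NOS-null marrow against 1444, 1504, 1627 and 1485 with WT marrow (0.61 with SE 0.15, adjusted p = 0.0521), and did not pass. Of 22 other translocation and glycosylation genes, Magt1 and Krtcap2 fell. Magt1 had 859, 905, 1045 and 981 scaled reads with NOS-null marrow, against 1490.4, 1406, 1456 and 1434 with WT marrow (−0.61 with SE 0.08, adjusted p = 0.00574). So Magt1 was lower in every NOS-null marrow library, where Stt3b itself was not. Tusc3, of the other oxidoreductase subunit, was more abundant per gene length and overlapped between groups (log2 change −0.05, adjusted p = 0.730). It stood at 84.4 FPKM with NOS-null marrow against 87.8 with WT marrow, and Magt1 at 27.1 against 41.3. Krtcap2, a subunit of the STT3A form like Ostc, stood at 365 ± 32.9 against 499 ± 42.1 (−0.45, SE 0.09, adjusted p = 0.0329).

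For transport onward to the Golgi, 5 of 34 genes of COPII vesicles and cargo receptors fell and none rose. The shares of all tested genes were 2.18% and 1.87%. Sec13, a coat protein, averaged 789 ± 33.8 scaled reads with NOS-null marrow against 1004 ± 60.1 with WT marrow (log2 change −0.35, adjusted p = 0.0323). The SNARE gene Sec22b (−0.47, adjusted p = 0.0338), the GTPase gene Sar1a (−0.33, adjusted p = 0.0466) and the cargo receptor genes Tmed3 (−0.44, adjusted p = 0.0316) and Tmed9 (−0.35, adjusted p = 0.0296) also fell. Tmed10, of the same family as Tmed3 and Tmed9, stood at 2611 ± 301 against 2609.6 ± 128. All 12 genes of the COPI coat, which carries KDEL receptors back, were negative (median −0.25), and the GTPase gene Arf4 fell (2717 ± 290.4 against 3664 ± 55.3, −0.44, adjusted p = 0.0273).

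For the sensors and the disposal arm the list medians lay nearer to 0 than that of the members, as did those of all the other pathway lists. Of 13 unfolded protein response sensors and regulators, Xbp1, the transcription factor that IRE1 activates by splicing, fell (2517, 2230.3, 2527 and 2801 scaled reads with NOS-null marrow against 3382, 3044, 3144 and 3408 with WT marrow; log2 change −0.37 with SE 0.08, adjusted p = 0.0423). Gene-level values cannot show how much of it was spliced. The sensor gene Atf6 stood at 994 ± 84.0 against 838 ± 78.8 (0.25, adjusted p = 0.124). The sensor genes Ern1 (IRE1) and Eif2ak3 (PERK) had log2 changes of 0.34 and 0.16 (adjusted p = 0.221 and 0.363). In the same list, Atf6b was lower without overlap, at 295 ± 28.4 against 371 ± 37.0 (−0.33, limma adjusted p = 0.0890). Creb3l1 had a log2 change of −0.55 (limma adjusted p = 0.116). The list held 8 negative and 5 positive changes, and its median was −0.09. None of 22 genes of ER-associated degradation was called by limma, where 4.05% of all tested genes were called in either direction. The list's median was 0.01, with 11 changes negative and 11 positive. Herpud1 was at 0.35 (adjusted p = 0.124) and Sel1l at 0.20 (adjusted p = 0.154), while H47 was at −0.21 (adjusted p = 0.124) and Vcp at −0.16 (adjusted p = 0.199). Of 8 genes of PERK and ATF4 output, Sesn2, a stress-induced gene that p53 also activates, rose (125 ± 10.4 against 55.0 ± 14.1, 1.20, SE 0.19, adjusted p = 0.0133), and Atf4 stood at 1629 ± 239 against 1874 ± 147 (adjusted p = 0.241).

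**Figure D5:**
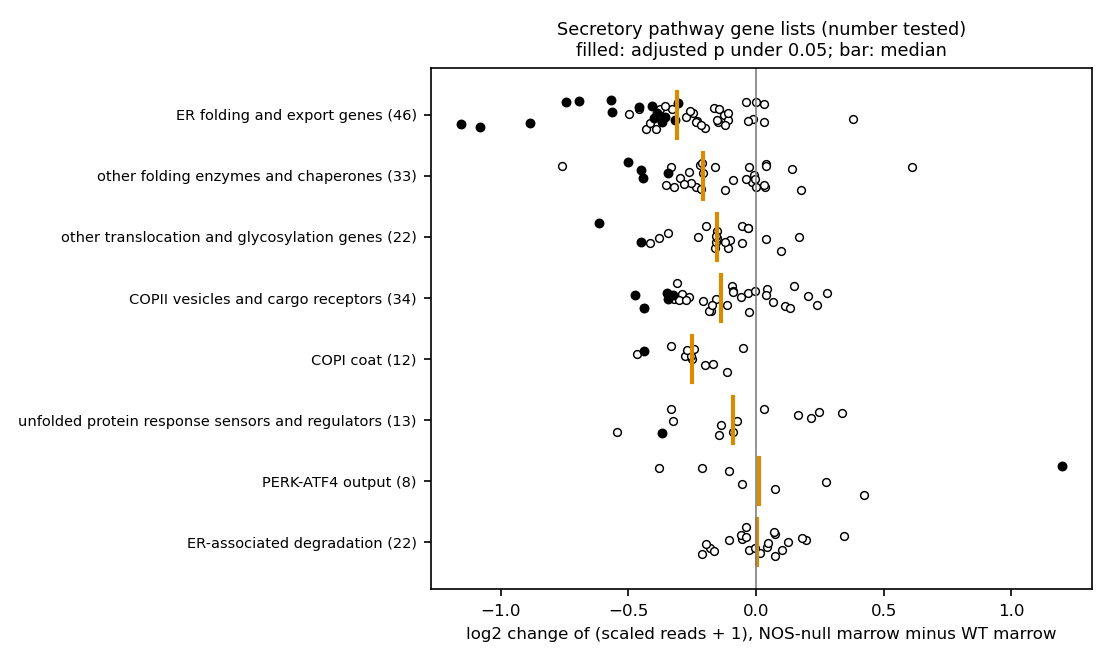
Log2 change of each tested gene (horizontal axis, NOS-null marrow minus WT marrow) in the 46 members and in the 7 lists of other secretory pathway genes (vertical axis, number tested in brackets); filled circles had an adjusted p under 0.05 and bars are medians. Medians run from −0.31 for the members and −0.25 for the COPI coat to 0.01 for ER-associated degradation.

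Markers of cell types a lung can hold were measured in the same libraries. For plasma cells, which are rich in ER, 1 of 8 tested markers rose and none fell. The one that rose, the joining chain gene Igj (now Jchain), had 279, 3767, 895 and 560.1 scaled reads with NOS-null marrow against 89.4, 148, 62.1 and 203 with WT marrow (log2 change 2.89, adjusted p = 0.0448). The summed plasma cell markers ran from 2502 to 6499 against 3076 to 3430.1 scaled reads, of which Sdc1, an epithelial gene too, averaged 2378 ± 344 against 2728 ± 119.7, and Tnfrsf17 was at 0 in NOS-null marrow replicate 1 and at most 7.29 elsewhere. All 6 B cell markers had groups that did not overlap on the lower side, where 9.29% of all genes did, but limma called none, with sums of 75.9 to 935 against 1298 to 2634. Neutrophil markers were all positive (8 of 8 tested, none called), with summed levels of 5656 to 94770 with NOS-null marrow (highest in replicate 1) against 2292 to 5870.3; Camp was at 0 in WT marrow replicate 3. Of 8 macrophage markers 7 were positive and none was called, with sums of 10962 to 25655 against 8411 to 10012. Chi3l3 made up most of these sums, at 13612 ± 6503 against 6055 ± 509. Marco went the other way without overlap, at 9.24 ± 6.85 against 46.8 ± 2.59 (log2 change −2.81), and was at 0 in NOS-null marrow replicate 3. Erythroid markers rose in 4 of 6 cases, where 1.87% of all tested genes did, with sums of 14309.5 to 22977 against 9543 to 10654. Alveolar type 2, club, alveolar type 1 and endothelial markers held no called gene, with medians of −0.06, 0.03, 0.05 and −0.10. Neutrophil sums were highest and B cell sums lowest in NOS-null marrow replicates 1 and 2. The part of these cell types in the members' differences was not tested.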

How the data were processed

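Per the labels' protocols, lung mRNA was made into libraries with a KAPA kit and sequenced as 75 bp single reads; strand is not stated. Per the submitters' processing notes, CASAVA 1.8.2, TopHat2 2.0.13, Bowtie2 2.2.3, SAMtools 0.1.19 and Cufflinks 2.2.1 were used with mm10; annotation and filters: not given in the sources used here. Levels and tests used a deposited table of signal values on the count scale; judged from the values, the authors scaled each library by a factor, by a method not stated. The deposited FPKM values of the authors were used for levels between genes and as an alternative. Whole reads could not be recovered, so no count model was used.

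Groups came from the sample titles, since the series' design text gives both groups the same donor marrow. The 14008 genes reaching 10 scaled reads in 4 or more libraries entered limma 3.58.1 (R 4.3.3, trend, not robust; Benjamini-Hochberg) on log2(value + 1), without other terms, checked on simulated data. Every member could be named. Of the other lists, called genes and the few of smallest p or highest level were named. A few others, such as Tusc3, Ern1 and Eif2ak3, were named to complete a comparison. Symbols absent from the table were matched to RefSeq synonyms. Not every pair of same-numbered libraries deviated together and the labels name no pairs, so the main fit assumed none. The pairs numbered 2 and 4 did have the highest correlations, 0.169 and 0.151. Members and lists were chosen with earlier results of these data known. Exons of 12 members overlap another gene's by 50 bases or more (GENCODE, GRCm38), and the values of these members are less certain. They are Hsp90b1, Manf, Pdia6, Rpn1, Rpn2, Sec61a1, Sec61a2, Sec62, Sec63, Spcs1, Srpr and Srprb.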

Additional observations from a re-analysis of the deposited data

Results flagged for a closer look

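In these groups of 4 libraries a single library can stand far from the other 3, and chance alone flags about 1 in 20 groups by the criterion used (Dixon's, the gap to the nearest library over the whole range). Among the members, Pdia3 had 3833 scaled reads in NOS-null marrow replicate 1 against 4472 to 4564 in the other 3, and Rpn2 had 2471 in the same library against 2826 to 2855, out of 92 groups of member values examined. Among the other genes named, the neutrophil genes S100a8 and S100a9 reached 39729 and 29866 scaled reads in NOS-null marrow replicate 1, against at most 3246 and 2961 in the other 3. Mrc1, a macrophage gene, had 1803 scaled reads in NOS-null marrow replicate 2 against 1047 to 1129 in the other 3.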

How the results depend on the processing

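The direction of the members' median held under all 17 alternatives, but the counts of called genes did not. Replicate numbers were not shown to pair libraries (correlations of their deviations −0.00266 to 0.169). With the replicate number as a block, 135 of all genes, 4 members and 2 other pathway genes were called, against 567, 15 and 14 without it. Without both NOS-null marrow replicates 1 and 2, these were 181, 5 and 1, and the members' median log2 change was −0.23. Leaving out 1 library at a time gave 71 to 798 of all genes, 1 to 18 members and 1 to 14 other pathway genes. The cause was not tested. Signs turned for some genes that were not called. Without both replicates, the log2 changes of Dnajb9, Kdelr1 and Sec61a2 were 0.022, 0.023 and 0.10, those of Sec62 and Sec63 were −0.073 and −0.077, and those of Sftpb, Cyp2f2 and Cdh5 were 0.012, −0.051 and −0.014. Rescaling by median ratios gave Sec61a2 a change of 0.00196. Leaving out 1 library gave ranges of −0.045 to 0.033 for Dnajb9, −0.060 to 0.097 for Sec61a2, −0.0090 to 0.082 for Sec62, −0.014 to 0.079 for Sec63, −0.075 to 0.055 for Tmed10 and −0.012 to 0.088 for Cyp2f2. Over the 9 other settings, 384 of 414 values of members kept their sign and side of the threshold, 22 lost the call, 2 gained it and 6 changed sign; for other genes named, the counts were 473 of 522, 43, 3 and 3. Depth per library is known only from scaled totals, and a gene under 10 scaled reads, such as Pdia2, could not be compared.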
